A study of Mus musculus with 24 samples.

Results

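Heme and hemoglobin scavenging, breakdown and export were followed through 10 genes, Hp, Hpx, Cd163, Lrp1, Slc48a1, Hmox1, Hmox2, Blvra, Blvrb and Flvcr1, out of 37008 gene names on the array. The genes were chosen by name, and 9 of the 10 appear in the scanner files under that name. Flvcr1 appears there under its older symbol Mfsd7b and was matched through its accession. The RNA came from male Erfe-/- mice, whose liver and bone marrow were profiled on 24 single-colour arrays. All 6 groups lack Erfe, the gene of the erythroid hormone erythroferrone, so the design holds no wild-type mice. The mice at 0 h are labelled control, and those at 24 and 48 h had been phlebotomized by retro-orbital puncture. Each time has 4 mice and each group 4 arrays. The mice's age and the volume of blood taken are not given in the sources used here, nor is whether liver and marrow arrays of the same number come from 1 mouse.

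Hemoglobin freed from red cells is bound in plasma by haptoglobin, and free heme by hemopexin. CD163 takes up the haptoglobin complex into macrophages, and LRP1 takes up the hemopexin complex. Heme from engulfed red cells leaves the phagolysosome through SLC48A1, also called HRG1. Heme oxygenases then open the ring, releasing iron, carbon monoxide and biliverdin, which biliverdin reductases turn into bilirubin, while FLVCR1 carries intact heme out of the cell. Liver makes most plasma haptoglobin and hemopexin, and the macrophages of liver and marrow recycle iron from aged red cells and expelled nuclei.

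A level is the log2 of a probe's signal with the 75th percentile of its array set to 0, and group means are given ± SD. A change is the later time minus the earlier on that log2 scale with its standard error (SE). Levels of a gene are compared between arrays only, never between genes. Changes were tested with limma across all measured genes of a tissue, and "called" means an adjusted p below 0.05. Between 28078 and 35771 of 56605 probes were well above background on an array. Of the 2 Erfe probes, 1 was above background on 1 of 12 marrow arrays and neither on any liver array. Hepatocyte markers separated the tissues. On 11 marrow arrays the 12 markers had a median of 0.00189% to 0.0241% of their mean liver level, but on replicate 2 of marrow at 24 h the median was 10.4%, with single markers at 7.02% to 27.6%. That array carries liver transcripts, so Hp and Hpx in marrow are led by the fit on the 11 other marrow arrays. For Hmox1 and Lrp1 at 24 h and for some gene lists, values without it are given. The other marrow changes come from all 12 arrays. Differences in a bulk sample cannot tell fewer cells of a type apart from less RNA per cell.

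Marrow Hmox1 was the one member called after phlebotomy. Hmox1 encodes the inducible heme oxygenase, and its reported probe lies on mm9 chromosome 8, 77624406 to 77624466, on the plus strand. In marrow at 0 h replicates 1 to 4 read 4.19, 4.58, 4.64 and 4.83. At 24 h they read 3.01, 2.96, 3.51 and 3.52. At 48 h they read 3.92, 3.99, 3.46 and 3.95. All arrays at 24 h and all at 48 h lay below all arrays at 0 h, and the ranges at 24 and 48 h overlapped at the upper end of the former. The group means were 4.56 ± 0.27 before phlebotomy, 3.25 ± 0.31 after 24 h and 3.83 ± 0.25 after 48 h (SD, n = 4 each). Hmox1 fell by 1.31 (SE 0.18, 95% confidence interval -1.71 to -0.91) at 24 h, to 40.4% of its level at 0 h (limma, adjusted p = 0.00687). The exact two-sided permutation test gave p = 0.0286, the smallest that 4 against 4 arrays allow. Without the array carrying liver transcripts the change was -1.21 (limma, adjusted p = 0.0204). Within slides 1, 2 and 3 the change on all arrays was -1.37, -1.67 and -1.31. The only marrow 24 h array on slide 2 was the one carrying liver transcripts.

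At 48 h the Hmox1 change from 0 h was -0.73 (SE 0.18, 95% interval -1.13 to -0.33), 60.3% of the starting level, with a limma adjusted p of 0.0841 and an exact permutation p of 0.0286. It was thus not called, although the 2 groups did not overlap. Within slides it was -0.47, -0.91 and -0.88. From 24 to 48 h the level differed by 0.58 (SE 0.18, limma adjusted p = 0.57, exact permutation p = 0.0857). The 24 h and 48 h comparisons share the 4 arrays at 0 h. In order, Hmox1 was highest in marrow at 0 h, then marrow at 48 h, marrow at 24 h, liver at 48 h, liver at 0 h and liver at 24 h, and the 3 liver groups did not differ beyond their spread. The second Hmox1 probe, at 77620085 to 77620144, was well above background on 0 of 24 arrays and adds nothing.

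Liver Hmox1 did not follow. Its replicates read 3.09, 2.21, 2.53 and 2.22 at 0 h, 2.75, 2.49, 2.18 and 2.31 at 24 h, and 2.52, 2.70, 2.94 and 2.89 at 48 h. The 3 ranges overlapped. The change was -0.08 (95% interval -0.51 to 0.35, limma adjusted p = 0.902) at 24 h and 0.25 (95% interval -0.18 to 0.68, limma adjusted p = 0.905) at 48 h. The marrow change minus the liver change, an interaction term over all 24 arrays, was -1.23 (SE 0.28) at 24 h with a limma adjusted p of 0.0629. It was -0.98 (SE 0.28, limma adjusted p = 0.153) at 48 h. Neither difference between the tissues was called. This fit treated the arrays of both tissues as independent, although each time has 4 mice. The difference at 24 h was called under 6 of 32 other settings, among them arrays of the same number and time as a block. Over the 32 settings the adjusted p ran from 0.0187 to 0.138.

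**Figure D1:**
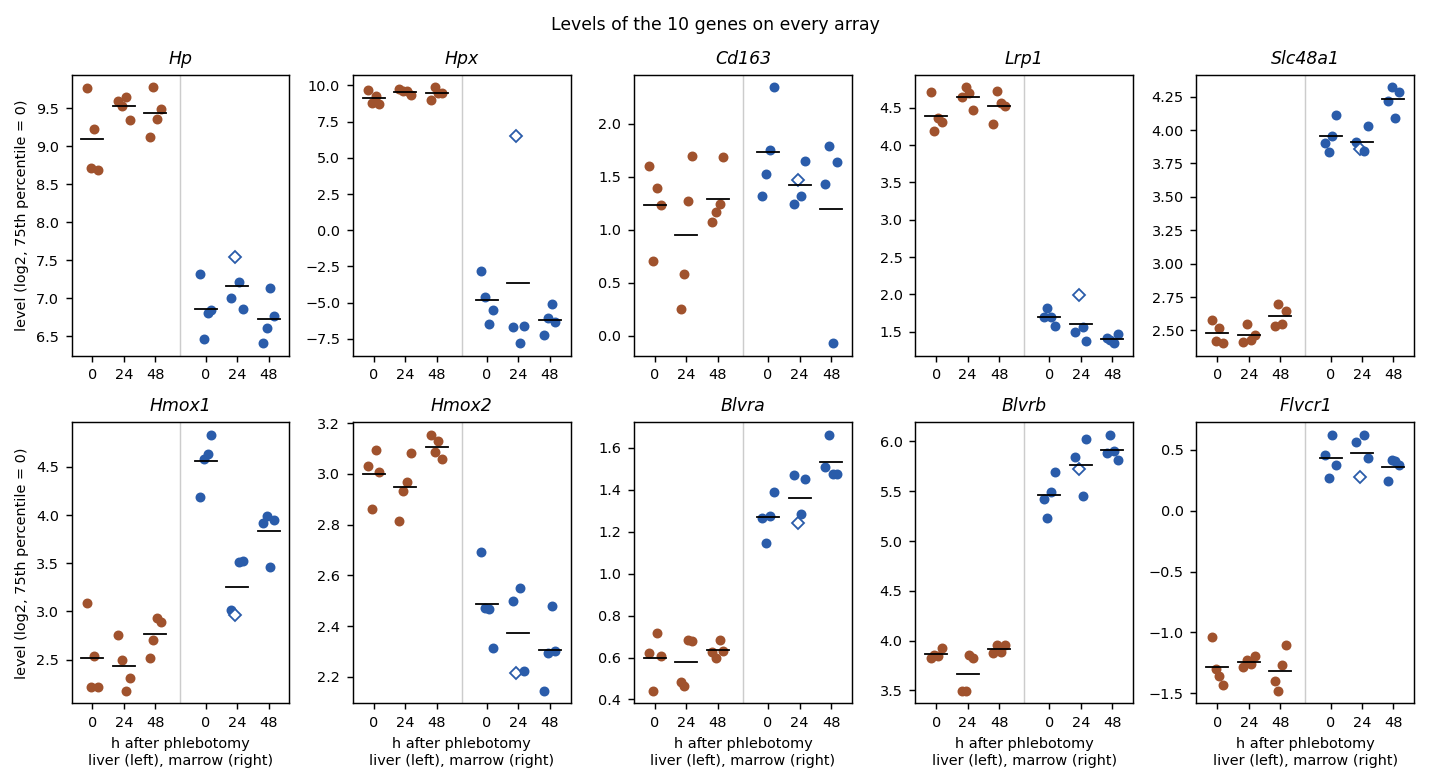
Level of each of the 10 genes on every array (y axis, log2 signal with the array's 75th percentile at 0, each panel with its own range) at 0, 24 and 48 h (x axis, hours), liver in brown on the left and marrow in blue on the right. Points are arrays, the black line is the mean of 4 arrays, and the open diamond is the marrow array that carries liver transcripts. All marrow Hmox1 arrays at 24 h lie below those at 0 h, while the liver arrays overlap across times.

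Macrophages are the main site of heme breakdown in marrow, and most of their markers had lower means when Hmox1 was low. Of 17 macrophage markers 16 were measured in marrow, and 15 of these had a lower mean at 24 h than at 0 h, with changes from -0.86 to 0.30 and a median of -0.37 against -0.02 over all 21399 genes tested. None was called, while 10 had an unadjusted limma p below 0.05, against 12.6% of all genes. For 10, all arrays at 24 h lay below those at 0 h, against 8.25% of all genes with groups apart in either direction. The smallest adjusted p (limma) belonged to C1qb, a complement C1q chain of tissue macrophages (-0.45, adjusted p = 0.0739), and Vcam1, an adhesion molecule of island macrophages (-0.37, adjusted p = 0.0898). Spic, the transcription factor of iron-recycling macrophages, which heme induces, changed by -0.55 (adjusted p = 0.103). On all arrays 0 of the 16 markers had a change as low as that of Hmox1, but without the array carrying liver transcripts Marco, a scavenger receptor, had a lower one (-1.31 against -1.21). Without that array Vsig4, a complement receptor, went from 0.30 to -0.18, so that all 16 were lower. The summed marker signal lay at 7.12 to 7.36 (log2) on the arrays at 0 h, 6.75 to 6.97 at 24 h and 6.84 to 7.04 at 48 h. At 48 h the median marker change was -0.24 and 0 were called. An unadjusted p below 0.05 was found for 6 markers, against 16.0% of all genes. Without the array carrying liver transcripts 1 was called lower at 48 h, Cd5l, a protein secreted by macrophages (-0.70, limma adjusted p = 0.0465, against 0.0518 with it). The median at 24 h was -0.29 without that array. In liver the 17 markers had a median change of 0.10 at 24 h and -0.01 at 48 h. The part of these markers in the Hmox1 change was not tested.

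**Figure D2:**
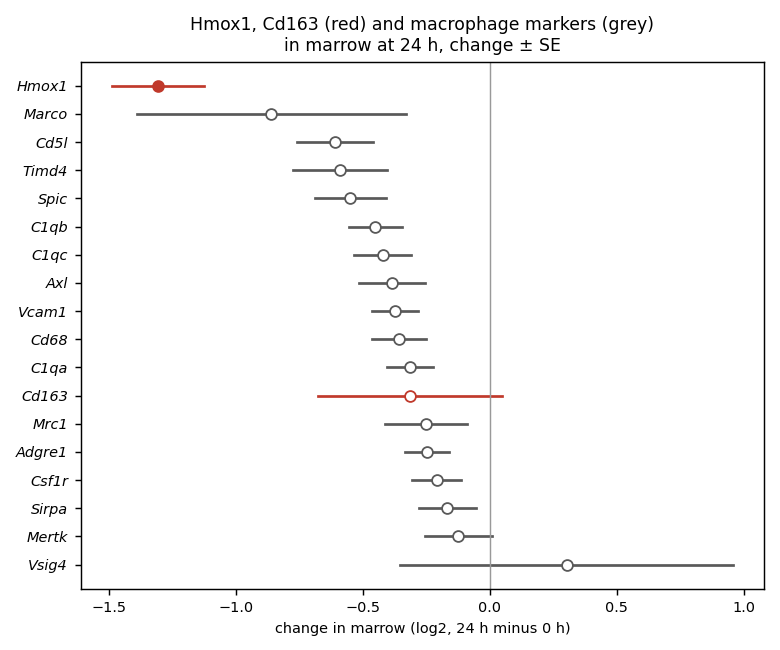
Change from 0 to 24 h in marrow (x axis, log2) for Hmox1 and Cd163 in red and the 16 measured macrophage markers in grey, as estimate ± SE from limma over 12 arrays. A filled point has an adjusted p below 0.05. Hmox1 at -1.31 is the only filled point, and 15 of 16 markers lie below 0.

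Across the members, 1 of the 9 measured in marrow was called at 24 h, and it was lower. Over all genes 1.01% were called in that comparison, and 0.463% were called lower. A count of 1 in 9 is small, and rests on Hmox1. Its groups were also the only ones among the 9 that did not overlap on all arrays, against 8.25% of all genes, and without the array carrying liver transcripts those of Lrp1 did not overlap either. At 48 h, 0 of 9 were called (1.23% of all genes), while 5 had an unadjusted limma p below 0.05, against 16.0% of all genes. Of those 5, 4 had groups that did not overlap, 2 higher and 2 lower, against 12.7% of all genes. Between 24 and 48 h, 0 of 9 were called (0.00467% of all genes) and 2 had an unadjusted p below 0.05 (7.68%). On all arrays 2 had groups that did not overlap (3.65% of all genes). Without the array carrying liver transcripts those of Flvcr1 did not overlap either. The median change over the members was -0.04 at 24 h and -0.12 at 48 h, against -0.02 and 0.00 over all genes.

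In liver, 0 of 10 members were called at 24 h, at 48 h or between these times, and limma called 0% of the 19648 genes in each of these 3 comparisons. No member had an unadjusted p below 0.05 at 24 h (10.9% of all genes) or at 48 h (6.44%) against 0 h. Between 24 and 48 h 1 did (7.63%). No member had groups that did not overlap at 24 h (5.51% of all genes) or at 48 h (4.15%), and 1 did between 24 and 48 h (3.66%). That 1 was Blvrb in both counts. The median change over the 10 was -0.02 at 24 h and 0.12 at 48 h, against -0.02 at both times over all genes. The SE of a change had a median of 0.12 over all liver genes and 0.13 over all marrow genes.

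**Figure D3:**
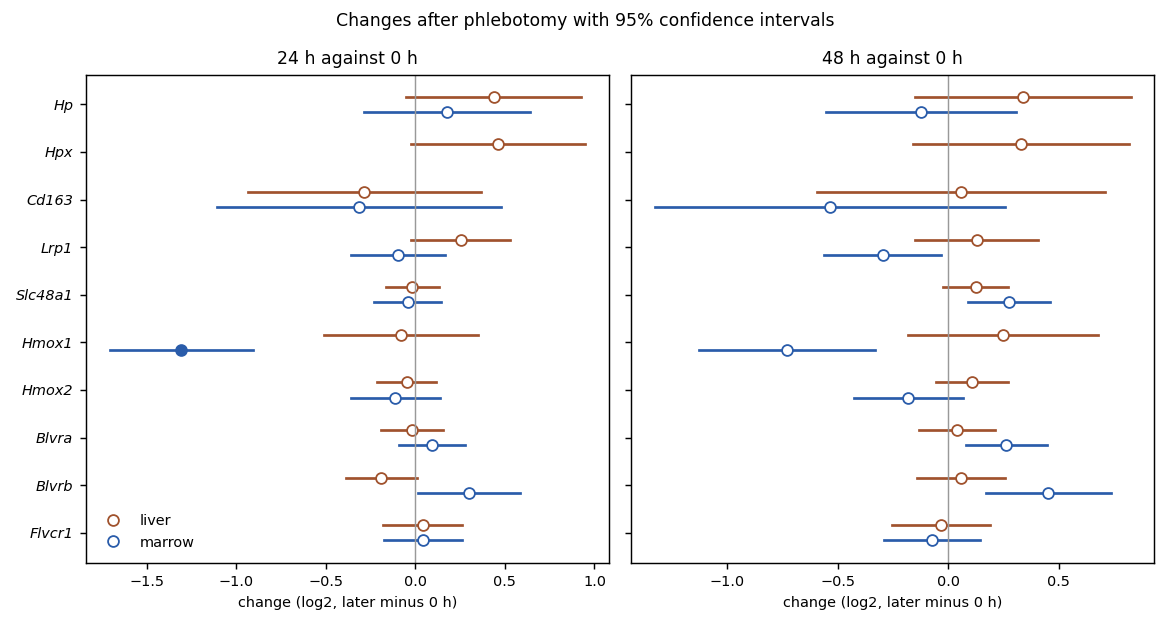
Change from 0 h to 24 h (left) and 48 h (right) on the x axis (log2) for each gene, liver in brown and marrow in blue. Bars are 95% confidence intervals from limma, a filled point has an adjusted p below 0.05, Hpx in marrow is left out because it was not measured there, and Hp in marrow leaves out the array carrying liver transcripts. Marrow Hmox1 at 24 h is the only filled point.

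Hp encodes haptoglobin, the plasma scavenger of hemoglobin, and its probe lies on mm9 chromosome 8, 112099045 to 112099104, minus strand. In liver its replicates read 9.76, 8.71, 9.23 and 8.68 at 0 h, 9.61, 9.53, 9.65 and 9.35 at 24 h, and 9.12, 9.78, 9.36 and 9.49 at 48 h. The arrays at 24 h were close together and lay within the wide range of those at 0 h. The change was 0.44 (SE 0.22, 95% interval -0.05 to 0.92) at 24 h with a limma adjusted p of 0.495, and 0.34 (95% interval -0.15 to 0.83, adjusted p = 0.873) at 48 h. Within slides the 24 h change was 0.37, 0.30 and 0.82.

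Hpx encodes hemopexin, the plasma scavenger of heme, with its probe on mm9 chromosome 7, 112740304 to 112740363, minus strand. In liver it read 9.69, 8.81, 9.26 and 8.71 at 0 h, 9.74, 9.63, 9.61 and 9.32 at 24 h, and 9.02, 9.86, 9.44 and 9.46 at 48 h. The groups overlapped, and as for Hp replicate 1 at 0 h was well above the other 0 h arrays. The change was 0.46 (SE 0.22, 95% interval -0.03 to 0.95, limma adjusted p = 0.474) at 24 h and 0.33 (95% interval -0.16 to 0.82, adjusted p = 0.878) at 48 h. Across the 12 liver arrays Hpx and Hp had a Pearson r of 0.978, and Itih4 and Vtn, both plasma proteins of hepatocytes, completed the 3 genes most like each of them. Their r with Hp was 0.982 for Itih4 and 0.972 for Vtn, and with Hpx 0.978 and 0.976. These points share arrays and a scaling factor, so the r are descriptions.

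The 16 acute phase genes, a group of liver proteins made in inflammation to which haptoglobin is usually counted, had 0 called in liver at 24 h. Of the 16, 7 had an unadjusted limma p below 0.05, against 10.9% of all genes. All 16 had a mean above that at 0 h, and the median change was 0.43. At 48 h the median was 0.16 with 1 at an unadjusted p below 0.05, against 6.44% of all genes. The 2 smallest p at 24 h were those of Serpina3n (0.87, adjusted p = 0.345), a serine protease inhibitor, and Itih3 (0.77, adjusted p = 0.366), a hyaluronan-binding plasma protein. Of 12 neutrophil markers 9 were measured in liver, and 7 of the 9 had a higher mean at 24 h, with a median change of 0.80. An unadjusted p below 0.05 was found for 1, against 10.9% of all genes. It was Lcn2 (2.45, SE 0.84, limma adjusted p = 0.369), which is also 1 of the 16 acute phase genes. Elane had the next smallest p (-0.19, limma adjusted p = 0.466). The summed signal of these 9 lay at 3.48 to 5.68 at 0 h, 4.74 to 6.41 at 24 h and 3.73 to 4.86 at 48 h, so the ranges overlapped. Their part in the Hp and Hpx values was not tested.

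In marrow Hp read 7.31, 6.46, 6.80 and 6.84 at 0 h and 6.41, 6.61, 7.13 and 6.77 at 48 h. At 24 h replicates 1, 3 and 4 read 7.01, 7.22 and 6.86, and replicate 2, the array carrying liver transcripts, read 7.54, the highest marrow value. Without that array the 24 h change was 0.17 (SE 0.21, 95% interval -0.29 to 0.64) with a limma adjusted p of 0.825. With it the change was 0.30 (adjusted p = 0.587). At 48 h the change was -0.12 (SE 0.19, adjusted p = 0.775). The permutation test of 3 against 4 arrays cannot give a p below 0.0571, and gave 0.429 for the 24 h change. Neutrophils store haptoglobin, and the 12 neutrophil markers had 0 called in marrow at either time, with medians of 0.02 at 24 h without that array and -0.21 at 48 h. Over the 11 marrow arrays the genes most like Hp were Clec4e (r 0.970), Plscr1 (0.962) and Tbcb (0.961).

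Hpx was well above background on only 3 of the 12 marrow arrays. It was well above background on 2 of 4 marrow arrays at 0 h, on 1 of 4 at 24 h and on 0 of 4 at 48 h. The 2 arrays at 0 h were replicate 1 at -2.83 and replicate 2 at -4.60. The array at 24 h was replicate 2, the one carrying liver transcripts, at 6.47, while replicates 1, 3 and 4 read -6.70, -7.79 and -6.59. The other 2 arrays at 0 h read -6.45 and -5.51, and the 4 at 48 h -7.23, -6.04, -5.09 and -6.35. Replicate 1 at 0 h also had the highest share of hepatocyte markers among the 11 other marrow arrays, 0.0241% of the liver level. Hpx was therefore not tested for a change in marrow. Liver exceeded marrow in Hpx at least 31357-fold at 24 h, over 3 marrow arrays, and at least 27105-fold at 48 h. These bounds set the liver mean against the lowest signal that counted as well above background on each marrow array.

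**Figure D4:**
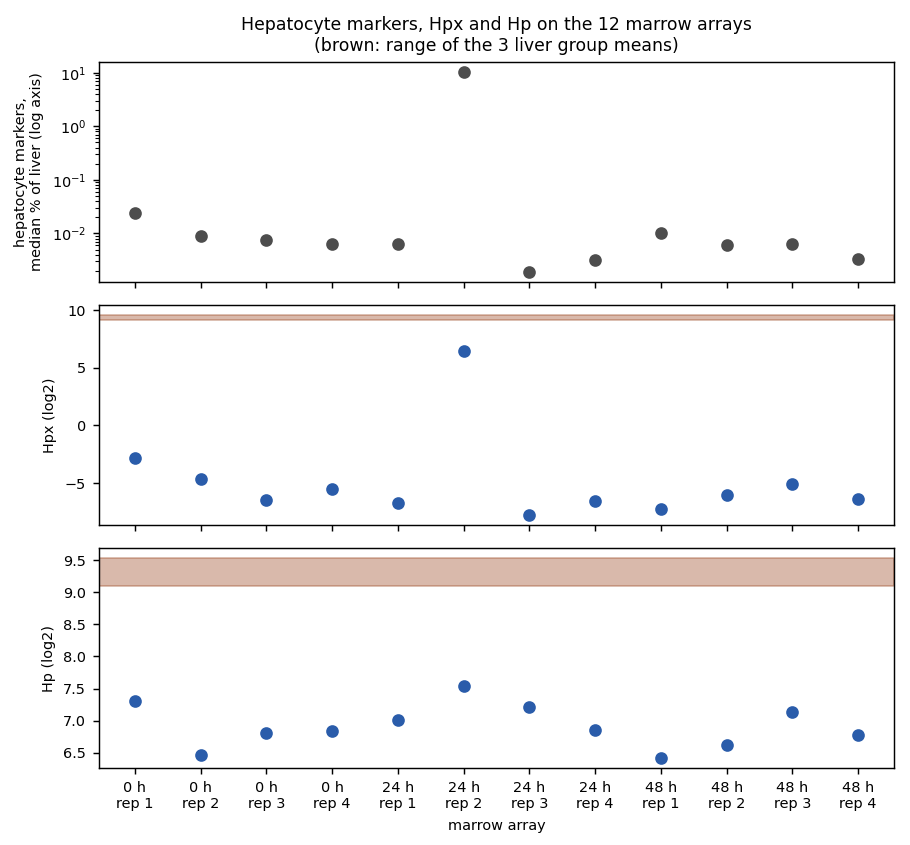
The 12 marrow arrays (x axis, time and replicate) with the median level of 12 hepatocyte markers as a percent of liver (top, log axis), Hpx (middle) and Hp (bottom), both log2 relative to the array's 75th percentile. The brown band spans the 3 liver group means. Replicate 2 at 24 h stands apart in the markers at 10.4% and in Hpx at 6.47, and has the highest Hp at 7.54.

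Cd163 encodes the macrophage receptor for haptoglobin-bound hemoglobin, with its reported probe on mm9 chromosome 6, 124280484 to 124280543, plus strand. In marrow it read 1.31, 1.53, 1.75 and 2.34 at 0 h, 1.24, 1.47, 1.32 and 1.65 at 24 h, and 1.43, 1.79, -0.07 and 1.64 at 48 h. Replicate 3 at 48 h was far below the other 11 marrow arrays. The change was -0.31 (SE 0.36, limma adjusted p = 0.765) at 24 h and -0.53 (95% interval -1.33 to 0.26, adjusted p = 0.5) at 48 h. Without that array the 48 h change was -0.11, so most of it rests on 1 array. The same array had the lowest Hmox1 of its group, at 3.46. In liver Cd163 read 1.60, 0.71, 1.40 and 1.24 at 0 h, 0.25, 0.58, 1.27 and 1.69 at 24 h, and 1.07, 1.17, 1.24 and 1.69 at 48 h. The groups overlapped widely, and the changes were -0.28 (SE 0.30, adjusted p = 0.751) and 0.06 (adjusted p = 0.997). These intervals leave room for changes of some size in either direction.

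Lrp1 encodes the endocytic receptor of hemopexin-bound heme, with its reported probe on mm9 chromosome 10, 126975573 to 126975632, minus strand. In marrow it read 1.70, 1.83, 1.70 and 1.58 at 0 h, 1.49, 1.997, 1.56 and 1.37 at 24 h, and 1.41, 1.39, 1.35 and 1.47 at 48 h. All 4 arrays at 48 h lay below those at 0 h, and the highest array at 24 h was the one carrying liver transcripts. The 48 h change was -0.30 (SE 0.12, 95% interval -0.56 to -0.03), with a limma adjusted p of 0.253 and an exact permutation p of 0.0286. A second measured probe, at 127024797 to 127024856, had a difference of means of -0.09. The 24 h change was -0.10 (adjusted p = 0.787) on all arrays and -0.23 (adjusted p = 0.277) without the array carrying liver transcripts. At 24 h the second probe differed by 0.28 on all arrays and by 0.01 without it, so it did not show this fall. In liver Lrp1 read 4.71, 4.18, 4.37 and 4.31 at 0 h, 4.64, 4.77, 4.70 and 4.47 at 24 h and 4.28, 4.72, 4.57 and 4.52 at 48 h. Those groups overlapped, with changes of 0.25 (SE 0.13, adjusted p = 0.485) and 0.13 (adjusted p = 0.936).

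Slc48a1 encodes the heme importer of the phagolysosome, with its reported probe on mm9 chromosome 15, 97623060 to 97623119, plus strand. In marrow it read 3.90, 3.84, 3.96 and 4.11 at 0 h, 3.91, 3.86, 3.84 and 4.03 at 24 h, and 4.22, 4.32, 4.09 and 4.29 at 48 h. The arrays at 48 h all lay above those at 24 h, and replicate 3 at 48 h lay within the range at 0 h. The change was -0.04 (adjusted p = 0.872) at 24 h and 0.28 (SE 0.08, 95% interval 0.09 to 0.46) at 48 h, with a limma adjusted p of 0.14. From 24 to 48 h the change was 0.32 (SE 0.08) with an unadjusted p of 0.00292 and a limma adjusted p of 0.544. The second measured probe, at 97621662 to 97621721, differed by 0.19 at 48 h and by 0.39 from 24 to 48 h. In liver it read 2.58, 2.42, 2.52 and 2.41 at 0 h, 2.41, 2.55, 2.43 and 2.47 at 24 h and 2.53, 2.70, 2.55 and 2.64 at 48 h. The liver changes were -0.02 (adjusted p = 0.943) and 0.12 (adjusted p = 0.821), and the second probe differed by -0.02 and -0.09, at 48 h in the other direction.

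Hmox2 encodes the constitutive heme oxygenase, with its reported probe on mm9 chromosome 16, 4766093 to 4766152, plus strand. Its marrow arrays read 2.69, 2.47, 2.47 and 2.31 at 0 h, 2.50, 2.22, 2.55 and 2.22 at 24 h, and 2.14, 2.29, 2.48 and 2.30 at 48 h. In liver it read 3.03, 2.86, 3.09 and 3.01 at 0 h, 2.81, 2.93, 2.97 and 3.08 at 24 h, and 3.15, 3.09, 3.13 and 3.06 at 48 h. Groups overlapped in both tissues. The marrow changes were -0.11 (95% interval -0.36 to 0.13, limma adjusted p = 0.723) at 24 h and -0.18 (95% interval -0.43 to 0.07, adjusted p = 0.464) at 48 h. These intervals exclude a change as large as that of Hmox1 at 24 h. The liver changes were -0.05 (adjusted p = 0.838) and 0.11 (adjusted p = 0.884). The second probe gave marrow differences of -0.13 and -0.17 at the same times.

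Blvrb encodes biliverdin reductase B, a flavin reductase abundant in red cell precursors, with its probe on mm9 chromosome 7, 28250944 to 28251000, plus strand. In marrow it read 5.42, 5.23, 5.50 and 5.69 at 0 h, 5.84, 5.72, 5.46 and 6.02 at 24 h, and 5.88, 6.06, 5.90 and 5.81 at 48 h. All arrays at 48 h lay above all at 0 h, and 3 of 4 did so at 24 h. The change was 0.30 (SE 0.13, limma adjusted p = 0.363) at 24 h and 0.45 (SE 0.13, 95% interval 0.17 to 0.74, adjusted p = 0.119) at 48 h, the latter with an exact permutation p of 0.0286. Within slides the 48 h change was 0.55, 0.49 and 0.12. In liver Blvrb read 3.82, 3.86, 3.84 and 3.92 at 0 h, 3.50, 3.50, 3.86 and 3.82 at 24 h, and 3.87, 3.95, 3.89 and 3.96 at 48 h. Replicates 1 and 2 at 24 h stood below every other liver array. The liver changes were -0.19 (SE 0.09, adjusted p = 0.467) and 0.06 (adjusted p = 0.976), and 48 h exceeded 24 h by 0.25 (unadjusted p = 0.0182, adjusted p = 0.569).

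Blvra encodes biliverdin reductase A, which forms bilirubin from the product of heme oxygenase, with its reported probe on mm9 chromosome 2, 126922489 to 126922548, plus strand. The marrow arrays had 1.26, 1.15, 1.27 and 1.39 at 0 h, 1.47, 1.24, 1.28 and 1.45 at 24 h, and 1.51, 1.66, 1.48 and 1.48 at 48 h. All arrays at 48 h lay above those at both earlier times. The 48 h change was 0.26 (SE 0.08, 95% interval 0.08 to 0.45, limma adjusted p = 0.155), and the second probe, at 126912587 to 126912646, differed by 0.30. At 24 h the change was 0.09 (adjusted p = 0.688). Its liver means were 0.60 ± 0.11, 0.58 ± 0.12 and 0.64 ± 0.04 (SD, n = 4 each) in order of time. Those groups overlapped, with changes of -0.02 (adjusted p = 0.948) and 0.04 (adjusted p = 0.982). The second probe differed in liver by -0.21 at 24 h and 0.02 at 48 h.

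Flvcr1 encodes the heme exporter of the plasma membrane, which red cell precursors need, with its reported probe on mm9 chromosome 1, 192829831 to 192829890, minus strand. In marrow it read 0.46, 0.27, 0.62 and 0.37 at 0 h, 0.56, 0.28, 0.62 and 0.43 at 24 h, and 0.24, 0.41, 0.41 and 0.37 at 48 h. The groups overlapped, and the changes were 0.04 (95% interval -0.18 to 0.26, limma adjusted p = 0.896) and -0.07 (95% interval -0.29 to 0.15, adjusted p = 0.763). In liver the levels were -1.28 ± 0.17, -1.24 ± 0.04 and -1.31 ± 0.16 at 0, 24 and 48 h (SD, n = 4 each). The liver changes were 0.04 (adjusted p = 0.903) and -0.03 (adjusted p = 0.996). A further probe, at 192848927 to 192848986, was above background on 12 of 12 marrow arrays and 0 of 12 liver arrays, and its marrow means differed by 0.22 at 24 h and 0.04 at 48 h.

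Blvrb, Blvra and Slc48a1 had their highest marrow means at 48 h, and so did the summed signal of 12 erythroid markers. At 48 h all 12 markers had a mean above that at 0 h, with a median change of 0.51, against 0.00 over all genes. Limma called 2 of them, against 1.23% of all genes. Tfrc, the transferrin receptor, changed by 1.02 (SE 0.13, limma adjusted p = 0.00325). Rhag, a red cell membrane protein, changed by 0.74 (SE 0.14, limma adjusted p = 0.0357). The Rhag call was lost under 12 of 24 other settings, with an adjusted p of up to 0.135, and the Tfrc call at 48 h under 0. The summed signal of the 12 lay at 10.35 to 10.74 at 0 h, 10.35 to 10.58 at 24 h and 10.60 to 10.88 at 48 h. Tfrc was also called at 24 h (0.80, limma adjusted p = 0.0143), a call lost under 3 of 24 other settings, with an adjusted p of up to 0.0555. The part of these markers in the changes of Blvrb, Blvra and Slc48a1 was not tested. Over the 11 marrow arrays genes most like Blvrb included Pir (r 0.970) and Pnp2 (0.970), those most like Blvra were Sgo1 (0.979), Usp14 (0.975) and Cln8 (0.974), and those most like Slc48a1 were Capn9 (0.977), Fzr1 (0.957) and St3gal5 (0.955). Hmox1 was followed most closely by Ido1 (0.966), Cxcr5 (0.964) and Fcrl1 (0.960) in marrow, and in liver by Nrm (0.893), Cd5l (0.868) and Slc7a8 (0.860). Each r is a description over arrays that share a scaling and, in marrow, the order of the times.

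Before phlebotomy 8 of the 9 genes measured in both tissues differed between them. At 0 h limma called 5 higher and 3 lower in marrow, where 80.2% of all 22781 genes were called, 39.6% higher and 40.6% lower. The same 8 had groups that did not overlap, against 76.2% of all genes, so both counts are near the background and are no result about these genes. Hpx is left out of them because it passed the filter only through liver. Higher in marrow were Hmox1 (2.05, a 4.13-fold level), Flvcr1 (1.71, 3.28-fold), Blvrb (1.60, 3.03-fold), Slc48a1 (1.47, 2.77-fold) and Blvra (0.67, 1.59-fold). Their limma adjusted p-values lay between 1.11e-13 for Slc48a1 and 9.55e-08 for Blvra. Higher in liver were Hp (marrow minus liver -2.24), Lrp1 (-2.69) and Hmox2 (-0.51), with adjusted p of 1.11e-08, 4.70e-14 and 4.88e-05. For Hpx, not well above background on 2 of the 4 marrow arrays at 0 h, no difference is given. Cd163 differed by 0.50 (SE 0.35, 95% interval -0.23 to 1.23, adjusted p = 0.195). Under quantile normalization over all 24 arrays the Hp difference was -1.49, and the direction of every called member stayed. Liver and marrow arrays occupy different columns of each slide, so tissue and column cannot be told apart.

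The differences between tissues in the change gave 0 of 10 members called at 24 h, where 0.364% of all genes were called, and 0 of 10 at 48 h, where 0.413% were. At an unadjusted limma p below 0.05 there were 3 at 24 h, against 11.39% of all genes, and 5 at 48 h, against 11.01%. Both counts include Hpx, which was not well above background on most marrow arrays, so its value is not interpreted. The other members at 24 h were Hmox1 and Blvrb, the latter at 0.49 (SE 0.16, adjusted p = 0.199).

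Other genes of heme transport and binding were counted from a list of 12, all measured in both tissues. In marrow at 48 h limma called 2 higher and 0 lower, against 1.23% of all genes in either direction. The median change was 0.13, against 0.00 over all genes. An unadjusted p below 0.05 was found for 4, against 16.0% of all genes. Abcg2, an exporter of heme and porphyrins, went from 3.56 ± 0.22 to 4.26 ± 0.20 (SD, n = 4 each), a change of 0.70 (SE 0.14, adjusted p = 0.0439). Abcb6, a porphyrin transporter, went from 1.36 ± 0.12 to 1.90 ± 0.14, a change of 0.54 (SE 0.10, adjusted p = 0.0365). The groups of both genes did not overlap. Both calls sit close to the threshold and were lost under 13 and 11 of 24 other settings, with Abcb6 at an adjusted p of 0.135 and Abcg2 at 0.156 without marrow 48 h replicate 2. At 24 h in marrow 0 of 12 were called, with Abcg2 at 0.65 (adjusted p = 0.062) and Abcb6 at 0.22 (adjusted p = 0.415). In liver 0 were called at either time, and Abcg2 changed by -0.55 (SE 0.19, adjusted p = 0.366) at 24 h and -0.45 (adjusted p = 0.744) at 48 h. The marrow change of Abcg2 exceeded the liver change by 1.20 (SE 0.25, limma adjusted p = 0.0352) at 24 h and 1.15 (SE 0.25, adjusted p = 0.0412) at 48 h. Without the array carrying liver transcripts the 24 h difference was 1.19 with an adjusted p of 0.0623. These calls were lost under 12 of 32 other settings at 24 h and 16 of 32 at 48 h.

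Of 12 targets of the transcription factors NRF2 and BACH1, which also control Hmox1, 12 were measured in marrow and 11 in liver. In marrow at 48 h limma called 1 higher and 1 lower, against 1.23% of all genes in either direction. The median change was 0.11, against 0.00 over all genes. Srxn1, which reactivates oxidized peroxiredoxins, went from 1.17 ± 0.21 to 1.66 ± 0.07 (SD, n = 4 each), a change of 0.49 (SE 0.10, adjusted p = 0.0461). Slc7a11, the cystine importer, went from -3.47 ± 0.11 to -4.25 ± 0.15, a change of -0.78 (SE 0.17, adjusted p = 0.0485). These 2 calls were lost under 17 and 18 of 24 other settings. At 24 h, when Hmox1 was lowest, 0 of the 12 were called in marrow. Srxn1 changed by 0.45 (limma adjusted p = 0.067) and Slc7a11 by -0.52 (limma adjusted p = 0.202). At that time 9 of the 12 had a mean above that at 0 h, with a median change of 0.12, against -0.02 over all genes. In liver at 24 h 0 of 11 were called and the median was -0.16. An unadjusted p below 0.05 was found for 4, all of them lower, against 10.9% of all genes. The smallest p there were those of Me1, malic enzyme (-1.62, SE 0.37, adjusted p = 0.325), and Srxn1 (-0.33, SE 0.08, adjusted p = 0.325). The marrow change of Srxn1 exceeded its liver change by 0.78 (SE 0.13, limma adjusted p = 0.0101) at 24 h and 0.61 (SE 0.13, adjusted p = 0.0415) at 48 h. The 24 h difference was called under all 32 other settings and the 48 h difference under 9 of them.

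The regulators and partners of heme oxygenase (Bach1, Nfe2l2, Keap1, Mafg, Mafk, Maff and Por) had 0 of 7 called in any comparison within a tissue. In marrow at 24 h none had an unadjusted p below 0.05, and the smallest were those of Maff (0.43, adjusted p = 0.399) and Mafg (0.12, adjusted p = 0.615). In liver at 24 h Por, which donates electrons to heme oxygenase and cytochromes P450, changed by 0.38 (SE 0.10, unadjusted p = 0.00296, adjusted p = 0.334). Bilirubin handling had 0 called among 6 measured genes in liver, with a median of -0.28 at 24 h and -0.11 at 48 h. Slco2b1 and Slco1b2, 2 organic anion carriers, had the smallest p in liver at 24 h, with changes of -0.32 (adjusted p = 0.34) and -0.41 (adjusted p = 0.432). Iron release and storage had 0 of 7 measured called in either tissue at any time. Slc40a1, ferroportin, through which iron from heme leaves macrophages, changed by -0.34 (SE 0.13, unadjusted p = 0.0206, adjusted p = 0.29) in marrow at 24 h.

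Of the 10 genes, 7 had promoter windows of 300 bases in the RefSeq table (build GRCm38.p6), 10 windows in all, while Hmox1, Hp and Slc48a1 had none. The windows were searched on both strands for TGACNNNGC, the core of the element bound by NRF2 and BACH1, and for AGATAA, which factors of the GATA family bind. The first was in 12.4% of the 32817 distinct windows searched and the second in 11.2%. The search left out a whole chromosome, on which no member lies. Of the members' windows, 4 held the first motif and 0 the second. The 4 matches are shown because the motif is the one through which NRF2 and BACH1 act on their targets. The motif is in capitals, read 5′ to 3′ on the strand that matches.
Flvcr1, gene strand, window chr1:191026141-191026440, minus strand: ttcacaagctTGACCCCGCccctcttctc
Blvra, other strand, window chr2:127070407-127070706, plus strand: ggcggagcctTGACCGAGCaattcccgtg
Hpx, other strand, window chr7:105600067-105600366, minus strand: ttgtcttccaTGACTATGCcaatattggc
Lrp1, other strand, window chr10:127621099-127621398, minus strand: gcggcaatccTGACAGTGCgcatgcgctg
A match is a description of letters, not of binding, and none of these 4 genes was called after phlebotomy.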

How the data were processed

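Cy3-labelled RNA of 24 samples was hybridised to 1-colour Agilent arrays. The deposited scanner files hold spot intensity from Agilent Feature Extraction 10.10.1.1, per the submitters' processing notes, which also name limma. That intensity had its background subtracted and was detrended array by array, per the file headers. The authors also deposited a log2 value table, used as an alternative only. Its column medians were 7.74 in liver and 8.31 in marrow, and how its values were scaled and centred is not given in the sources used here.

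Processed intensity was taken to log2 minus the array's 75th percentile (361.2 to 473.1 units in liver, 715.0 to 954.7 in marrow), without 3671 control spots and outlier spots. No spot was saturated (0). A probe was kept in a tissue where every array of 1 or more of its groups had it well above background, and a gene was represented by its brightest kept probe. The filter kept 10 of 10 members in liver and 9 of 10 in marrow. The 10 members have 19 probes. Positions are mm9, per the file headers. Exon and UTR positions were not analysed here. Changes were tested with limma 3.58.1 in R 4.3.3 (lmFit, eBayes, two-sided, Benjamini-Hochberg over all genes tested), the 3 times of a tissue together. Code was tested on simulated data. The number of arrays limits precision. The labels do not say that samples of a group came from separate extractions beyond 4 mice per time, so p-values measure the spread between these samples.

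The members, gene lists and markers were chosen with earlier results of these data known. Named list genes are those called or, where none was, the 2 with the smallest p, and Spic, Marco, Vsig4, Cd5l and Slc40a1 were chosen after their values were seen. For each member the 3 named genes with the highest Pearson r were taken, and those shown are for Hmox1, Hp, Hpx, Blvra, Blvrb and Slc48a1. For Blvrb in marrow 1 of the 3 is not reported here.
Alternatives covered scaling, background, the authors' table, filters, probes per gene, slide, replicate number, variance model, weights, the arrays fitted and leaving out each array.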

Additional observations from a re-analysis of the deposited data

Results flagged for a closer look

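Each group of 4 arrays was examined for an array standing apart from the other 3, over the 10 genes in 6 groups. Of these 60 groups, 2 held such an array, where chance alone gives about 1 in 20. Hmox1 in marrow at 48 h replicate 3 read 3.46, while its 3 companions read 3.92 to 3.99. Hpx in marrow at 24 h replicate 2 was 6.47, against -7.79 to -6.59, on the array that carries liver transcripts.

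Several genes had a change that differed between the tissues by the interaction term of limma. For Srxn1 the marrow change minus the liver change was 0.78 at 24 h (adjusted p = 0.0101) and 0.61 at 48 h (adjusted p = 0.0415). For Abcg2 it was 1.20 at 24 h (adjusted p = 0.0352) and 1.15 at 48 h (adjusted p = 0.0412). For Hba-a1, an alpha globin gene of the erythroid markers, it was -0.86 at 48 h (adjusted p = 0.0279), a call lost under 9 of 32 other settings, with an adjusted p of up to 0.0788. Hba-a1 in liver changed by 0.88 at 48 h (adjusted p = 0.268).

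For 2 members every array of one tissue lay on the opposite side of its 0 h mean from every array of the other at 48 h. Hmox1 changed by -0.73 in marrow and 0.25 in liver, and Hmox2 by -0.18 in marrow and 0.11 in liver. The interaction term called neither, with adjusted p of 0.153 for Hmox1 and 0.434 for Hmox2.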

How the results depend on the processing

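For the 3 liver comparisons the count of members called was 0 under every alternative. It was also unchanged for marrow 24 h against 0 h (1) and marrow 48 h against 24 h (0). For marrow against liver at 0 h it stayed at 9, with Hpx counted. Hpx passed the filter only through liver, so its call there is no result. The marrow Hmox1 change at 24 h was called under all 24 alternatives, between -1.43 and -1.21, with adjusted p from 0.00268 to 0.0314. For marrow 48 h against 0 h, array weights gave 1 member called in place of 0. For the tissue difference at 24 h, quantile normalization, normexp, the replicate block, and the trended robust variance each gave 1 in place of 0, and leaving out single arrays gave 0 to 1, the 1 without liver 0 h replicate 1 or without liver 24 h replicate 3. For the tissue difference at 48 h leaving out single arrays gave 0 to 1, the 1 without liver 0 h replicate 1. In each case the member was Hmox1, and its adjusted p at 48 h in marrow ran from 0.0413 to 0.238. The cause was not tested. Replicate numbers were checked for pairing, and correlations of same-numbered arrays across times ran from -0.266 to 0.169, so no pairing across times was seen. Liver and marrow arrays of the same number and time had correlations of 0.00638 to 0.149, all above 0 but not all above 0.1, so whether they share a mouse was not settled. With the replicate block limma called 126 genes in place of 217 in marrow at 24 h and 100 in place of 264 at 48 h, and Hmox1 at 24 h kept its call. Over all genes, the alternatives called 69 (no filter on dim probes) to 382 (array weights) in marrow at 24 h, and 98 (without marrow 48 h replicate 2) to 714 (array weights) in marrow at 48 h. They called 22 to 176 in the tissue difference at 24 h, where 83 were called, and 24 to 167 at 48 h, where 94 were. In liver they called 0 to 2 at 24 h, 0 to 9 at 48 h and 0 to 1 between these times. Normexp moved the median of all genes between tissues by -0.22, and the called members kept their direction. The alternative with all 12 marrow arrays for Hp and Hpx was chosen after seeing the data and changed no call.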
